A study of Rattus norvegicus with 23 samples.

Results

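The genes described here are 5 rat genes of regulated secretion: Vgf, Scg2, Scg3 and Chgb of the granin family, and Calca, a neuropeptide gene. They come from a list of 6 granin and neuropeptide genes that were picked from the large falls in primary oligodendroglia as these cells differentiate. Of the 6, the authors' tables name 5, and Scg5 is not analysed here. The 5 genes were followed by identifier among 15219 genes listed in the count files of all groups, of which 12432 carry a name. Because differentiation of the primary cells chose these genes, their values in that comparison are a description with no test. The rule of the choice names no other comparison, and the others are tested. These genes and the gene lists used further below were, however, chosen with earlier results of these data known.

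Granins are acidic secretory proteins that gather in the trans-Golgi network and are packed with neuropeptides and amines into dense-core vesicles, which release their content on a calcium signal. Convertases, carboxypeptidases and an amidating enzyme cut the precursors into active peptides on the way. These genes are best known from neurons and endocrine cells. Vgf encodes a precursor of several peptides and is induced by nerve growth factor, Scg2 encodes secretogranin II, the precursor of secretoneurin, and Chgb encodes chromogranin B. Scg3 encodes secretogranin III, which binds other granins at the vesicle membrane. Calca gives calcitonin or the calcitonin gene-related peptide by alternative splicing, and gene counts do not tell these transcripts apart. Reads that also match the paralog Calcb could be split between both genes, so the level of Calca is uncertain to that extent.

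The series holds 23 RNA-seq libraries in 6 groups. Primary rat brain oligodendroglia, wild-type and shaken off mixed glial cultures, were either proliferating with bFGF and PDGF-AA (4 libraries) or differentiating for 3 days in SATO medium with T3/T4 and CNTF (4 libraries). CG4, an immortalized line made from such cells, gave 3 libraries of proliferating wild-type cells and 12 of cells differentiated for 3 days, 4 each after transduction with pCAG-IRES-EGFP (control), pCAG-myc-Zfp488-IRES-EGFP (Zfp488) or pCAGT7-Nkx2.2-IRES-EGFP (Nkx2.2). All 12 carry a vector that drives EGFP, the factors stand under an introduced promoter and not their own, and the labels do not name the animals or cultures behind a library. Zfp488 lay at 167 ± 29.0 CPM (SD, n = 4) in its own libraries and 42.4 ± 11.3 CPM (n = 4) in control, and Nkx2-2 at 1621 ± 311 CPM (n = 4) in its own and 271 ± 41.5 CPM (n = 4) in control. Levels are CPM, read counts of a gene relative to the scaled library total, so they can be compared between groups for one gene but not between genes of different length. Total counts ran from 20063345 to 49206479 per library.

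The promoters of the 5 genes are shown first, because several carry letters of sites that are linked with granin genes in textbooks: the CRE, bound by the activator CREB, and RE1, bound by the repressor REST. RefSeq starts on build GRCr8 were matched by symbol for 5 of 5 genes, and the 150 bases before each start are printed 5′ to 3′ along the gene. Capitals mark a CRE (TGACGTCA), its core (TGACG), or letters of RE1.
Vgf, chr12:25277021-25277170, minus strand: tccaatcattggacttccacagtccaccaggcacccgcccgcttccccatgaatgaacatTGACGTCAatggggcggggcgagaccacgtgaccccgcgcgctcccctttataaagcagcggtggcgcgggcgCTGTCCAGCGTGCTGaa
Scg2, chr9:88256867-88257016, minus strand: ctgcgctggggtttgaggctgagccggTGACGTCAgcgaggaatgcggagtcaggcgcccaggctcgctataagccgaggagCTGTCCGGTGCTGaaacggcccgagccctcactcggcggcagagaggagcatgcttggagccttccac
Scg3, chr8:85322485-85322634, minus strand: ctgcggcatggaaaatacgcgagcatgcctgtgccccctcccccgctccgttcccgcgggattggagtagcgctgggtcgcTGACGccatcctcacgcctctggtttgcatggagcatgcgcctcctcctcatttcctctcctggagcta
Chgb, chr3:140496562-140496711, plus strand: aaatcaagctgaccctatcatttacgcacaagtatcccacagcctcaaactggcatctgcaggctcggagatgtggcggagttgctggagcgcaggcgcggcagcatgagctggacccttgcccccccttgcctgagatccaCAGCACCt
Calca, chr1:178317530-178317679, minus strand: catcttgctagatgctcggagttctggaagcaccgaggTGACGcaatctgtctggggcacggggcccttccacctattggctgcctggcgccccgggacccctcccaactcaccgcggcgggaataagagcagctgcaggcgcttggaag

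Motifs were counted on both strands of windows from 250 bases before to 50 bases after the start. The whole CRE occurs in Vgf, with its first base 90 bases before the start, and in Scg2, 123 bases before it, and in 1.83% of the 33469 promoters in the table. The core TGACG, which every CRE also contains, occurs in Vgf, Scg2, Scg3 and Calca, and in 21.2% of all promoters. The left part of RE1, CAGCACC, occurs in Scg2 and Chgb and in 6.78% of all promoters, and the right part, GGACAG, in Vgf and Scg2 and in 21.7%. Both parts joined with a pair of bases between them, with at most 3 mismatches, occur in Vgf alone of the 5, and in 14.1% of all promoters. The match in Vgf has 1 mismatch, and the share of promoters at that limit was not counted. In Scg2 both parts are exact and adjoin directly, so the spacing rule leaves it out. The E-box CAGGTG, which is not marked, occurs in 3 of the 5 (Vgf, Scg2 and Chgb) and in 18.8% of all promoters. These are matches of letters and no measured binding.

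Proliferating primary cells held by far the most Vgf, Scg2, Chgb and Calca RNA of the 6 groups, and in 3-day differentiated primary cells these 4 transcripts were between about 5 and 255 times lower. Vgf lay at 701, 657, 734 and 698 CPM in the 4 proliferating libraries and at 3.84, 3.19, 1.64 and 2.25 CPM in the 4 differentiating ones. The ratio of the mean levels was 255, and the fitted log2 fold change was -7.90 ± 0.16 (SE). That value ranked 7 from the lowest among 12310 genes. Scg2 lay at 445, 451, 466 and 450.0 CPM in proliferating and at 2.63, 2.23, 3.24 and 2.56 CPM in differentiating cells. Its mean was 170 times lower, with a log2 fold change of -7.38 ± 0.08 and rank 13. The proliferating libraries of both genes lay within a narrow band, and no library of one group came near the other.

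Calca, the only one of the 5 outside the granin family, was also lower in differentiating cells. It lay at 54.1, 52.9, 49.9 and 51.7 CPM in proliferating libraries and at 0.554, 0.577, 0.435 and 0.307 CPM in differentiating ones, where only 6 to 16 reads per library fell on it. The ratio of means was 111 and the log2 fold change -6.70 ± 0.10, rank 26. Chgb changed less. Its levels were 33.8, 34.4, 32.7 and 33.9 CPM in proliferating and 5.09, 4.00, 8.12 and 8.65 CPM in differentiating cells, a ratio of 5.21, a log2 fold change of -2.37 ± 0.19 and rank 808. Every proliferating library of Chgb and of Calca lay above every differentiating one.

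Scg3 goes against the description of the set, since it was not lower in differentiating primary cells. It lay at 49.95, 47.0, 47.9 and 46.2 CPM in proliferating and at 51.5, 52.8, 53.4 and 53.4 CPM in differentiating libraries, with a log2 fold change of 0.19 ± 0.04 and rank 7219. The sign of this small difference rests on the scaling: by unscaled library totals the means were 54.3 CPM in proliferating and 43.7 CPM in differentiating cells. Unscaled totals move every gene by -0.46 on the log2 scale in this comparison, and the other 4 genes are lower in both scalings.

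In the primary comparison 84.8% of 12310 genes passed the test across all genes, 43.3% lower and 41.5% higher, and 43.2% lay lower without overlap of the groups. The 4 proliferating libraries lay close together, and the 4 differentiating ones form close pairs, 1 with 2 and 3 with 4. The p-values in primary cells measure this spread, which may be technical in part, and the labels do not name the cultures. The pairs differed for Vgf (log2 fold change -7.56 with libraries 1 and 2 only, -8.43 with 3 and 4 only), for Chgb (-2.82 and -1.95) and for Calca (-6.45 and -7.05), and less for Scg2 (-7.47 and -7.22) and Scg3 (0.19 and 0.22). In these bulk samples, fewer cells of a type and less RNA per cell cannot be told apart. Markers of other cells moved in the same libraries, some lists down and some up. Of 14 tested neuron markers 12 fell and 1 rose, and their summed level went from between 2022 and 2104 CPM in proliferating libraries to between 1317 and 1343 CPM in differentiating ones. Among them Gap43 fell by 1.94 ± 0.05 and Elavl4 by 2.49 ± 0.07 on the log2 scale, while Elavl3 rose by 2.06 ± 0.10 (edgeR's quasi-likelihood test, adjusted p up to 3.52e-09). Of 8 listed microglia markers only 3 are named. All 3 fell, from a sum of 451 to 469 CPM to a sum of 18.8 to 24.9 CPM. Csf1r went from 356 ± 6.81 to 14.3 ± 1.93 CPM (n = 4 and 4). Of 8 listed fibroblast and vascular markers only 2 are named. Both fell, from a sum of 57.0 to 78.9 CPM to one of 5.54 to 10.6 CPM. Of 7 astrocyte markers 6 rose and none fell, from a sum of 201 to 211 CPM to one of 1222 to 2385 CPM. Gfap, the intermediate filament of astrocytes, went from 4.38 ± 0.256 to 1072 ± 484 CPM and was higher in differentiating libraries 1 and 2 (1521 and 1458 CPM) than in 3 and 4 (667 and 639.8 CPM). No marker of these lists was at 0 in all libraries of either primary group. The part of these cells in the levels of the 5 genes was not tested. The labelled cell type was present, with 10 of 10 mature oligodendrocyte markers rising, Mbp from 243 ± 13.6 to 52376 ± 4429 CPM.

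**Figure D1:**
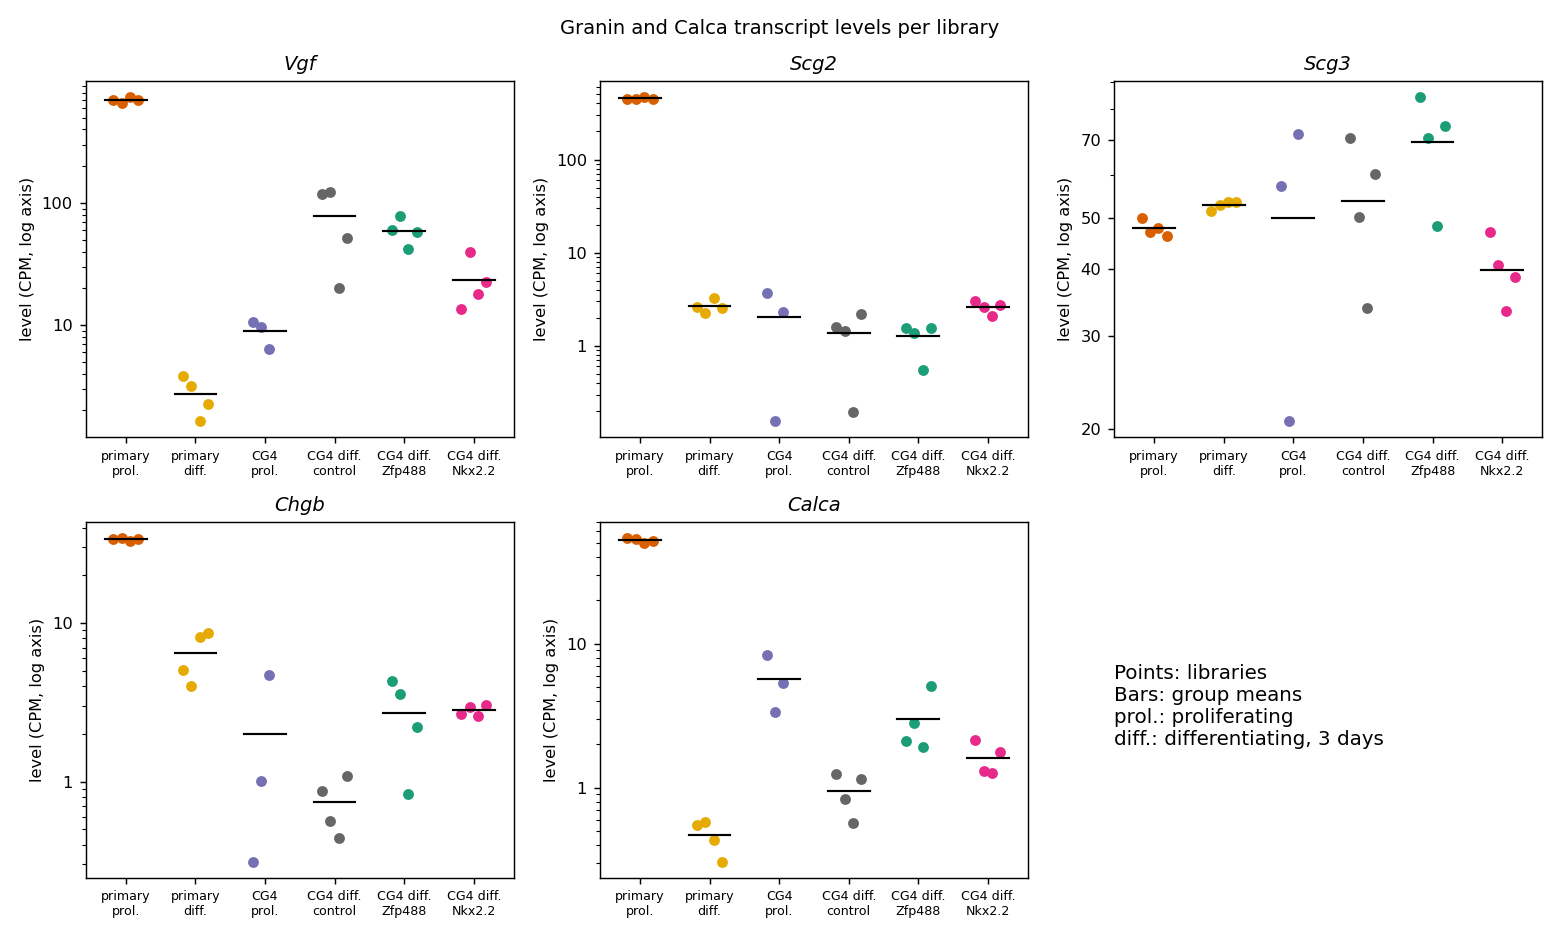
Levels in CPM (log axis) of Vgf, Scg2, Scg3, Chgb and Calca in each of 23 libraries (points) with group means (bars), for primary and CG4 cells that were proliferating (prol.) or differentiating for 3 days (diff.). The 4 proliferating primary libraries stand above all others for every gene except Scg3, and Vgf is higher in each differentiating CG4 group than in proliferating CG4 cells.

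Across the 6 groups the order of levels differed between the genes. For Vgf, proliferating primary cells (698 ± 31.3 CPM, n = 4) were followed by control CG4 (78.3 ± 50.7 CPM, n = 4), Zfp488 CG4 (59.3 ± 14.8 CPM, n = 4), Nkx2.2 CG4 (23.3 ± 11.4 CPM, n = 4), proliferating CG4 (8.89 ± 2.21 CPM, n = 3) and differentiating primary cells (2.73 ± 0.976 CPM, n = 4). Of these neighbours only control and Zfp488 overlapped. For Scg2 all groups but proliferating primary cells lay between means of 1.26 and 2.66 CPM, and each overlapped its neighbour in the order. For Scg3 the 6 means lay between 39.9 CPM with Nkx2.2 and 69.4 CPM with Zfp488, and all neighbours overlapped.

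For Chgb, proliferating primary cells (33.7 ± 0.707 CPM, n = 4) and differentiating primary cells (6.46 ± 2.27 CPM, n = 4) led, each without overlap with the next. Nkx2.2 (2.81 ± 0.217 CPM, n = 4), Zfp488 (2.72 ± 1.53 CPM, n = 4), proliferating CG4 (2.01 ± 2.36 CPM, n = 3) and control CG4 (0.741 ± 0.290 CPM, n = 4) followed, each overlapping the next. For Calca, proliferating primary cells (52.1 ± 1.76 CPM, n = 4) came before proliferating CG4 (5.67 ± 2.49 CPM, n = 3), Zfp488 (2.98 ± 1.47 CPM, n = 4), Nkx2.2 (1.62 ± 0.420 CPM, n = 4), control CG4 (0.951 ± 0.311 CPM, n = 4) and differentiating primary cells (0.468 ± 0.124 CPM, n = 4). Here proliferating primary cells stood apart from the next group, and Nkx2.2 stood apart from control. The mean in proliferating primary cells over that in proliferating CG4 cells was 78.4 for Vgf, 222 for Scg2, 16.8 for Chgb and 9.19 for Calca. These ratios are a description only. The genes were picked for a fall from proliferating primary cells, so high levels there follow in part from the choice. Read length also differs between these groups (150 bases in primary cells, 100 in CG4).

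Differentiation of CG4 cells is the comparison of the 4 control libraries with the 3 proliferating ones. The groups also differ in the vector, which only the control cells carry, and in read length (150 against 100 bases). The labels do not name sequencing runs, but the read lengths imply separate ones. Vector, read length and run cannot be told apart from differentiation. Of all 12486 genes tested 65.8% passed, 32.5% higher and 33.2% lower. Of the 5 genes 1 rose, Vgf, and 1 fell, Calca, a share that does not exceed the background.

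Vgf was higher in differentiating CG4 cells, opposite to its sign in primary cells. It lay at 119, 122, 20.1 and 51.6 CPM in control and at 10.6, 9.64 and 6.41 CPM in proliferating libraries, so the groups did not overlap although control replicate 3 was far below the other control libraries. Vgf rose by 3.17 ± 0.63 on the log2 scale (edgeR's quasi-likelihood test, adjusted p = 0.00239). Calca lay at 1.25, 0.837, 0.566 and 1.15 CPM in control and at 8.30, 3.35 and 5.36 CPM in proliferating libraries, again without overlap. It fell by 2.54 ± 0.41 (adjusted p = 0.000781 by the same test). The sign for Calca was thus the same in both cell sources, at a lower starting level in CG4.

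Genes listed as markers of other cells moved in these libraries too. CG4 is a cell line, and whether other cell types were present was not tested. Of 7 astrocyte markers 5 rose and none fell, from a sum of 201 to 375 CPM in proliferating to 1933 to 3413 CPM in control libraries. Gfap had at most 13 reads in a proliferating library and lay at 2094, 2141, 235 and 741 CPM in control, lowest in replicate 3, as Vgf was. Aldh1l1, also an astrocyte marker, was at 0 in all 3 proliferating libraries. Of 16 neuron markers 5 rose and 4 fell (summed 618 to 1018 CPM in proliferating, 457 to 763 CPM in control), the 1 fibroblast marker tested, Col1a1, rose to 8.13 ± 4.41 CPM, and neither of 2 microglia markers passed by edgeR (0 at an unadjusted p under 0.05, 0 by DESeq2). All 10 mature oligodendrocyte markers rose and all 8 proliferation markers fell. The part of these changes in the levels of Vgf and Calca was not tested.

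The other 3 genes did not pass in CG4, and the proliferating libraries lay far apart for each of them. Scg2 lay at 3.66, 0.156 and 2.31 CPM in proliferating libraries, of which the second rests on 5 reads, and at 1.59, 1.43, 0.197 and 2.21 CPM in control (log2 fold change -0.56 ± 0.93). Scg3 lay at 57.2, 20.7 and 71.9 CPM in proliferating and at 70.5, 50.1, 33.8 and 60.4 CPM in control libraries (0.14 ± 0.40). Chgb lay at 0.313, 1.00 and 4.71 CPM in proliferating and at 0.872, 0.567, 0.443 and 1.08 CPM in control libraries (-1.40 ± 0.79, adjusted p = 0.148). The value for Chgb rests on single proliferating libraries. Without proliferating replicate 1 it was -1.92 (adjusted p = 0.0250), and without proliferating replicate 3 it was 0.22 (adjusted p = 0.764).

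**Figure D2:**
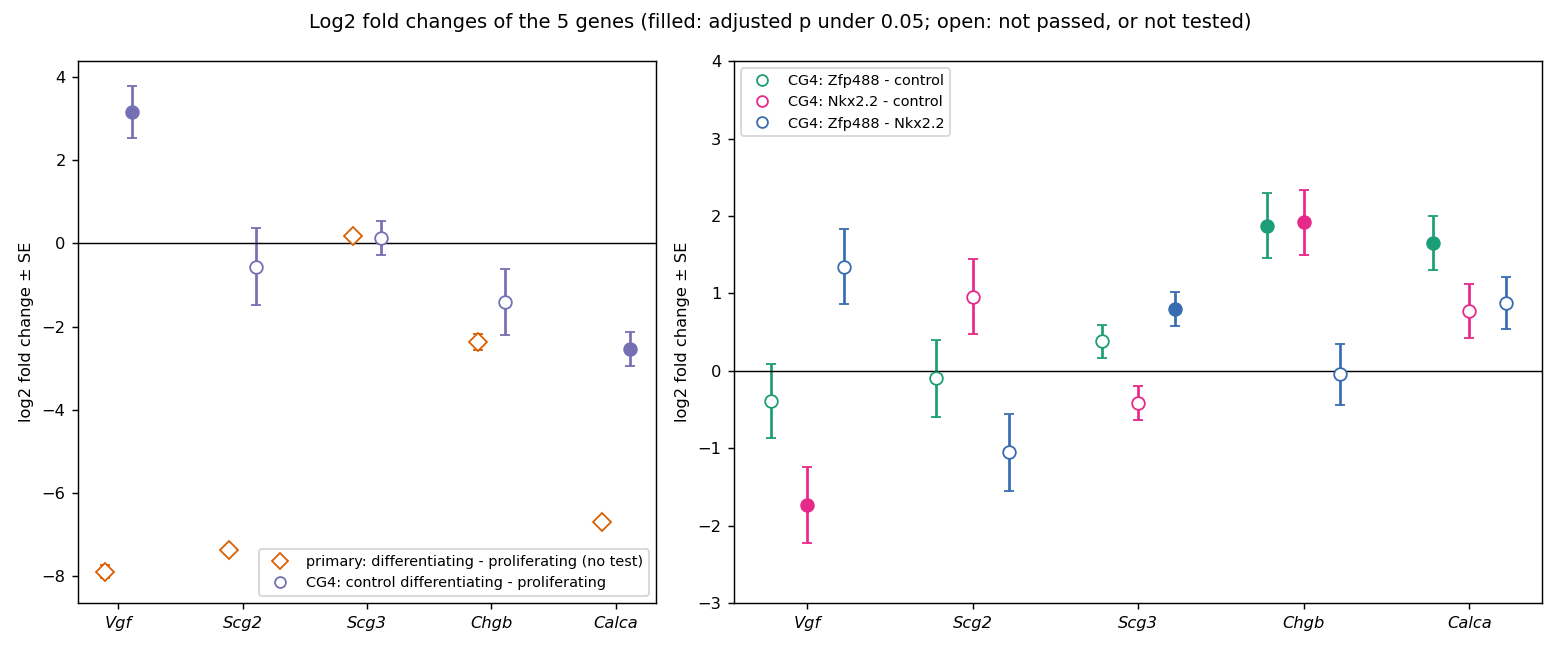
Log2 fold changes with SE of the 5 genes, left for differentiating against proliferating cells in primary cultures (diamonds, no test) and CG4 (circles), right for the 3 comparisons among differentiating CG4 cells. Filled symbols passed at an adjusted p under 0.05 without the replicate block. Vgf lies at -7.90 in primary cells and 3.17 in CG4.

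Added Zfp488 in differentiating CG4 cells went with more Chgb and Calca RNA, at low levels. Of 14811 genes 9.04% passed, 5.89% higher and 3.15% lower, and of the 5 genes 2 rose and none fell. Calca lay at 2.09, 2.80, 1.92 and 5.11 CPM with Zfp488, above all control libraries (up to 1.25 CPM), and rose by 1.65 ± 0.35 (edgeR's quasi-likelihood test, adjusted p = 0.0141). Chgb lay at 4.30, 3.54, 0.831 and 2.202 CPM with Zfp488 against 0.872, 0.567, 0.443 and 1.08 CPM in control. Its groups overlapped through Zfp488 replicate 3, and it rose by 1.87 ± 0.42 (adjusted p = 0.0189). This call of Chgb ended without control replicate 2 (adjusted p = 0.0535), control replicate 3 (0.0545) or Zfp488 replicate 2 (0.0589).

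Vgf, Scg2 and Scg3 did not pass with Zfp488. Vgf lay at 60.3, 77.8, 41.6 and 57.4 CPM, inside the range of control (-0.39 ± 0.48). Scg2 lay at 1.55, 1.38, 0.543 and 1.56 CPM (-0.10 ± 0.50). Scg3 lay at 84.1, 70.6, 48.3 and 74.5 CPM and was above the control library of the same replicate number in 4 of 4 numbers. It differed by 0.38 ± 0.21 (adjusted p = 0.302), and with the replicate number as a block by 0.40 ± 0.09 (adjusted p = 0.0107). With that block 24.1% of all genes passed. In the same comparison 3 of 16 neuron markers rose and none fell, 4 of 10 mature oligodendrocyte markers rose and none fell, and of 7 astrocyte markers 1 rose and 2 fell. With the block, 4 neuron markers rose and 1 fell, 9 mature oligodendrocyte markers rose, and of the astrocyte markers 2 rose and 3 fell. Their part in the levels of Chgb and Calca was not tested.

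Added Nkx2.2 went with less Vgf and more Chgb. Of 14811 genes 10.6% passed, 6.1% higher and 4.48% lower, and of the 5 genes 1 rose and 1 fell. Vgf lay at 13.6, 39.6, 17.8 and 22.3 CPM with Nkx2.2 and was lower than the same-numbered control library in 4 of 4 numbers, while the groups as a whole overlapped through control replicate 3. It fell by 1.73 ± 0.49 (edgeR's quasi-likelihood test, adjusted p = 0.0412). The call of Vgf is not firm: without control replicate 1 or 2 the adjusted p was 0.103 and 0.116, and without Nkx2.2 replicate 1, 3 or 4 it was 0.108, 0.0669 and 0.107. With only the 8 libraries compared it was 0.0867. With the replicate block Vgf fell by 1.58 ± 0.36 (adjusted p = 0.00810).

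Chgb with Nkx2.2 lay at 2.67, 2.93, 2.58 and 3.04 CPM, a tight group above every control library, and rose by 1.92 ± 0.42 (adjusted p = 0.0116). The authors' deposited table for each factor gives Chgb a log2 fold change of 1.93 with Nkx2.2 (adjusted p = 9.43e-10) and of 1.89 with Zfp488 (adjusted p = 0.00172). The authors' deposited table for Nkx2.2 gives Vgf -1.73 (adjusted p = 0.0438), and the authors' deposited table for Zfp488 gives Calca 1.66 (adjusted p = 0.000405). With Nkx2.2, 4 of 16 neuron markers rose and none fell, and 1 of 10 mature oligodendrocyte markers fell. With the block, 6 neuron markers rose, and of the mature oligodendrocyte markers 1 rose and 2 fell. None of 7 astrocyte markers passed by edgeR without the block, and 2 fell with it. Of these 7, 4 had an unadjusted p under 0.05 and 2 passed by DESeq2. Their part in the levels of Vgf and Chgb was not tested.

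Scg2, Scg3 and Calca did not pass with Nkx2.2 without the replicate block. With it all 5 genes passed, as did 26.2% of all genes, and with all libraries numbered 3 left out Scg2 and Scg3 passed without it (adjusted p = 0.0387 and 0.0344). Scg2 lay at 3.05, 2.60, 2.10 and 2.72 CPM, overlapping control only through control replicate 4 (2.21 CPM), and rose with the block by 1.12 ± 0.32 (adjusted p = 0.0267, against 0.246 in the fit without blocks). Scg3 lay at 46.9, 40.7, 33.3 and 38.7 CPM and was below its same-numbered control library in 4 of 4 numbers (with the block -0.38 ± 0.09 at an adjusted p of 0.0127, otherwise 0.253). Calca lay at 2.14, 1.30, 1.25 and 1.77 CPM, just above all control libraries (with the block 0.80 ± 0.25 at an adjusted p of 0.0391, otherwise 0.187). The smallest gap was that between Calca at 1.25 CPM in control replicate 1 and at 1.25 CPM in Nkx2.2 replicate 3.

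**Figure D3:**
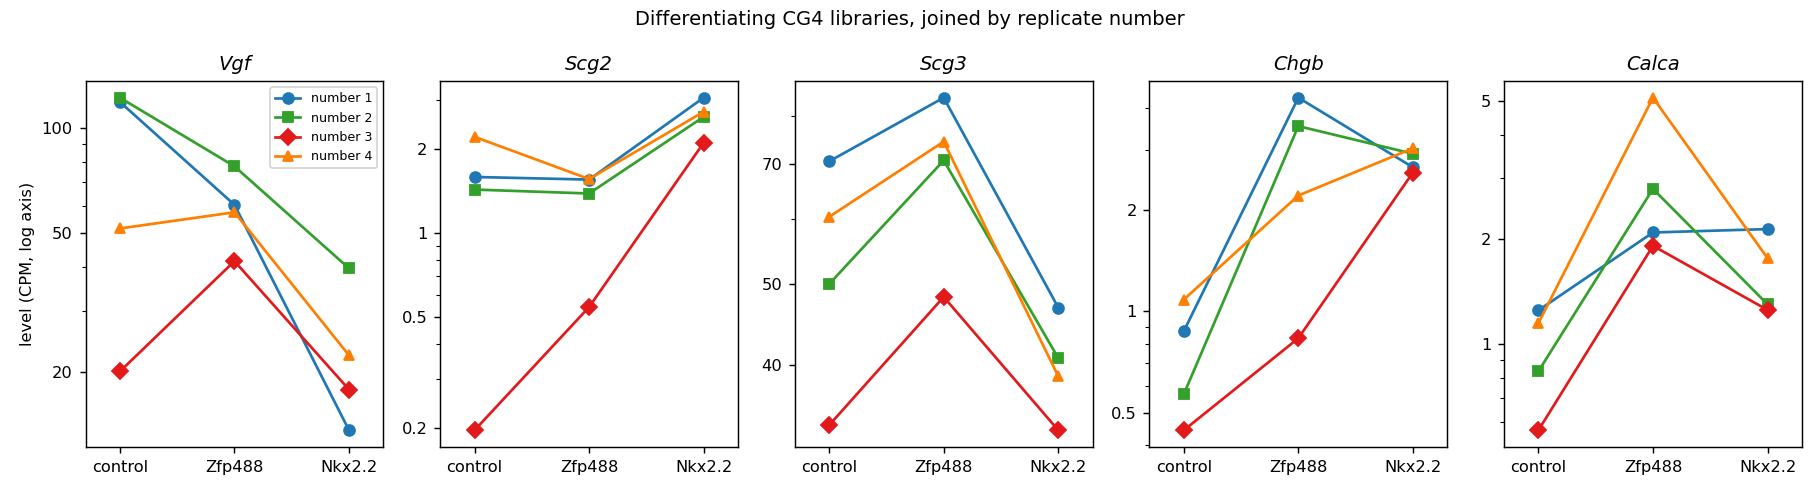
Levels in CPM (log axis) of the 5 genes in the 12 differentiating CG4 libraries, with lines that join the libraries of one replicate number. Library 3 is the lowest of the control and Zfp488 libraries for all 5 genes, and all 4 lines of Scg3 go up from control to Zfp488 and down to Nkx2.2.

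Compared directly in the fit of 12 libraries without the block, the factors differed at the threshold for Scg3 alone of the 5 genes. Of 14811 genes 25.3% passed, 13.3% higher and 12% lower with Zfp488. Of the 5 genes 1 was higher and none lower, a share that does not exceed the background. Every Zfp488 library (48.3 CPM and more) lay above every Nkx2.2 library (46.9 CPM and less) for Scg3, with a difference of 0.80 ± 0.22 (edgeR's quasi-likelihood test, adjusted p = 0.0182). Vgf, higher with Zfp488 in 4 of 4 numbers and without overlap, had a log2 difference of 1.34 ± 0.49 (adjusted p = 0.0616; blocked, 0.00913). Scg2, lower in 4 of 4 numbers and without overlap, had one of -1.06 ± 0.50 (adjusted p = 0.137; blocked, 0.0181). For Calca it was 0.88 ± 0.34 (adjusted p = 0.0746; blocked, 0.0148). With DESeq2 Vgf and Calca passed too (adjusted p = 0.0441 and 0.0451). With only the 8 libraries compared Vgf and Scg2 did (0.0171 and 0.0355), as they did without the libraries numbered 3 (0.0299 and 0.00878). Vgf also passed without Nkx2.2 replicate 2 (0.0415), and Calca without Zfp488 replicate 3 (0.0496). With the block 42.4% of all genes passed. Chgb differed by -0.05 ± 0.39 (adjusted p = 0.943), an SE too wide to call the levels alike. The comparisons with control share the 4 control libraries, and this direct one does not use them.

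The other genes of the secretory pathway come from fixed lists, of which the authors' tables name a part. Those tables compare differentiating CG4 cells only. A list gene absent from them has no name here and was not tested, whatever its level in primary cells. Counts of each list are to be read beside the share of all genes passing in that comparison, given above. Of the granins themselves, Chga, which encodes chromogranin A, and Pcsk1n, which encodes an inhibitor of a convertase, were named besides the 4. Chga fell in primary cells, from 5.67 ± 0.431 to 3.70 ± 1.29 CPM (log2 fold change -0.61 ± 0.21, adjusted p = 0.0185), but with differentiating libraries 3 and 4 only it was -0.19 (adjusted p = 0.155). It rose with Nkx2.2 by 2.09 ± 0.34, from 0.421 ± 0.114 to 1.78 ± 0.509 CPM (adjusted p = 0.00192), and differed by 0.95 ± 0.35 with Zfp488 (adjusted p = 0.110). Pcsk1n, measured in differentiating CG4 cells only, fell with Nkx2.2 by 0.98 ± 0.20 (adjusted p = 0.00860).

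Of 44 listed neuropeptide precursors 11 are named, Calca among them, and of the others 5 were tested in primary cells. Of these 2 rose and 3 fell, with a median log2 fold change of -1.94 beside -0.02 over all genes. Npw, the gene of neuropeptide W, fell by 4.74 ± 0.33 from 1.56 ± 0.271 CPM, and Pnoc, the gene of nociceptin, fell by 1.94 ± 0.25 from 1.76 ± 0.221 CPM. Apln, the gene of apelin, rose by 3.46 ± 0.17 to 10.4 ± 1.91 CPM, and Nppc, which encodes C-type natriuretic peptide, rose by 2.85 ± 0.12 (adjusted p from 1.98e-09 to 2.42e-05 over these 4 genes). In CG4 differentiation 4 of 7 rose and none fell, with Apln at 3.76 ± 2.71 CPM in proliferating and 20.3 ± 7.35 CPM in control cells (2.46 ± 0.53, adjusted p = 0.00379). Pnoc had 1 read in all 3 proliferating CG4 libraries together and lay at 3.43 ± 1.48 CPM in control (adjusted p = 0.000112).

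None of the 10 tested neuropeptide precursors passed with Zfp488 by edgeR without the block, while 2 had an unadjusted p under 0.05, 1 passed by DESeq2 and 2 rose with the block. Adm, which encodes adrenomedullin, a relative of the calcitonin peptides, lay at 40.5 ± 12.6 CPM against 14.3 ± 4.16 CPM in control (1.51 ± 0.45, adjusted p = 0.0578, and 0.00308 with the block). With Nkx2.2, 1 rose and 1 fell, and Pnoc fell by 1.57 ± 0.40 (adjusted p = 0.0272). The call of Pnoc ended without control replicate 1, 2 or 4 or Nkx2.2 replicate 1 or 4 (adjusted p from 0.0535 to 0.0776). Between the factors Adm was higher with Zfp488 by 3.00 ± 0.49 and Pnoc by 1.93 ± 0.41 (adjusted p = 0.00107 and 0.00488).

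Genes of the enzymes that process the precursors moved both ways in primary cells, where 5 of 11 rose and 4 fell, with a median log2 fold change of 0.09, which becomes -0.37 by unscaled totals. Cpe, the carboxypeptidase that trims the cut peptides, fell by 0.92 ± 0.08, from 854 ± 13.2 to 439.6 ± 65.4 CPM (adjusted p = 1.32e-06), and Pam, which amidates peptides such as that of Calca, fell by 0.18 ± 0.04, from 110.1 ± 3.57 to 94.6 ± 2.18 CPM (adjusted p = 0.000981). Ctsl, a cathepsin found in vesicles and lysosomes, rose by 3.43 ± 0.08, Pcsk6, a convertase, by 2.07 ± 0.13 and Cpd, a carboxypeptidase, by 1.51 ± 0.07, and the convertase gene Furin fell by 0.64 ± 0.05 (adjusted p up to 1.46e-07). In CG4 differentiation 6 of 11 rose and none fell, with a median of 0.60 beside 0.01 over all genes, among them Pcsk4 (4.48 ± 0.37), Pcsk6 (2.48 ± 0.17), Ctsl (1.94 ± 0.23), Furin (1.86 ± 0.29) and Pam (0.87 ± 0.14, adjusted p = 0.000847).

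Of 13 processing genes, 2 rose with Zfp488 and none fell, or 3 rose and 2 fell with the block. Furin rose by 1.33 ± 0.27, from 109.9 ± 38.7 to 274 ± 102 CPM (adjusted p = 0.0126), and Ctsl by 1.66 ± 0.35 (adjusted p = 0.0155, and 0.0542 without Zfp488 replicate 4). With Nkx2.2, 2 rose and 1 fell, or 3 and 3 with the block. Without the block Cpe rose by 0.71 ± 0.16, from 114 ± 14.04 to 185 ± 26.2 CPM (edgeR's quasi-likelihood test, adjusted p = 0.0132). Between the factors 3 were higher and 2 lower with Zfp488, led by Pcsk5, a convertase, at 1.12 ± 0.20, and by Furin at 1.49 ± 0.27 (adjusted p = 0.00176 and 0.00203).

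Genes of dense-core vesicle assembly and release moved both ways in primary cells, 10 of 29 higher and 14 lower. Over all genes 41.5% were higher and 43.3% lower. The median of the list was -0.13 beside -0.02 over all genes. By unscaled totals, which move every gene alike, the list median becomes -0.59. The 4 with the smallest adjusted p all rose: Syt1, a calcium sensor of release, by 3.12 ± 0.07, Rab3a, a vesicle GTPase, by 1.87 ± 0.05, Vamp2, a vesicle SNARE protein, by 1.32 ± 0.04 and Ccdc186, which takes part in vesicle maturation, by 1.29 ± 0.05 (adjusted p up to 6.78e-10). Snap25, the SNARE partner on the plasma membrane, fell by 2.35 ± 0.16, from 28.6 ± 1.86 to 5.55 ± 1.59 CPM (adjusted p = 9.17e-08). In CG4 differentiation 12 of 32 rose and 9 fell, beside 32.5% higher and 33.2% lower over all genes. Bsn, which encodes a scaffold of release sites, fell there by 3.79 ± 0.36. With Zfp488, 3 of 33 rose and 1 fell, or 10 and 2 with the block. Rab3b rose by 2.96 ± 0.38 from 0.729 ± 0.155 CPM, and Hid1, which acts in the sorting of vesicle cargo at the Golgi, by 1.07 ± 0.18 from 218 ± 26.0 CPM (adjusted p = 0.00199 and 0.00480). With Nkx2.2, 7 rose and 1 fell, or 10 and 4 with the block: Rab27b, a GTPase of vesicle docking, rose by 1.27 ± 0.17, Bsn by 2.19 ± 0.35 and Cadps2, a priming factor of dense-core vesicles, by 0.96 ± 0.19, while Rab3d fell by 0.52 ± 0.10 (adjusted p from 0.000632 to 0.00656).

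Receptors were followed for the peptide of Calca and for a peptide of Vgf. Calcrl forms the receptor of the calcitonin gene-related peptide together with Ramp1. Calcrl RNA was detected in both cell sources, and within CG4 was highest in proliferating cells. It lay at 95.8 ± 5.42 CPM in proliferating and 60.2 ± 4.08 CPM in differentiating primary cells (log2 fold change -0.63 ± 0.06, adjusted p = 9.54e-07), where Calca had 0.468 CPM. In CG4 it lay at 195 ± 40.7 CPM in proliferating and 8.04 ± 1.65 CPM in control cells, and fell by 4.57 ± 0.22 (adjusted p = 1.43e-06). Nkx2.2 went with a rise of 1.35 ± 0.32 to 20.3 ± 7.56 CPM (adjusted p = 0.0178), which ended without control replicate 4 (0.0523) or Nkx2.2 replicate 1 (0.0516). With Zfp488 Calcrl lay at 4.55 ± 2.08 CPM (-0.81 ± 0.32, adjusted p = 0.139, and 0.00966 with the block), and the factors differed by -2.16 ± 0.33 (adjusted p = 0.000746).

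Ramp1, the partner of Calcrl, fell in primary cells by 1.35 ± 0.28, from 6.97 ± 0.777 to 2.74 ± 1.38 CPM (adjusted p = 0.000901), or by 2.06 with differentiating libraries 1 and 2 only and by 0.77 with 3 and 4 only. It stayed under 1 CPM in every CG4 group. With Nkx2.2 Ramp1 had 1, 3, 2 and 0 reads per library, against 8, 2, 10 and 15 in control, which overlap (lower at an adjusted p of 0.0492), and 10, 13, 14 and 19 with Zfp488, which do not (adjusted p = 0.00237). The first of these calls ended without control replicate 1, 3 or 4 or Nkx2.2 replicate 1, 2 or 4 (adjusted p from 0.0686 to 0.125). Calcr, which encodes the calcitonin receptor, rose with Nkx2.2 by 1.49 ± 0.24 from 0.719 ± 0.136 CPM (adjusted p = 0.00208). C1qbp, which encodes a reported binding partner of a Vgf peptide, fell in primary cells by 0.77 ± 0.04 (adjusted p = 8e-09). Of the 4 receptor genes tested there 1 rose and 3 fell.

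REST and CREB, the factors known from the sites shown above, were read at the RNA level only. Rest itself rose in primary cells by 0.20 ± 0.06, from 40.2 ± 1.64 to 44.8 ± 3.03 CPM (adjusted p = 0.00822), but by unscaled totals it lay lower, at 37.2 CPM in differentiating against 45.8 CPM in proliferating cells. It fell in CG4 differentiation by 0.79 ± 0.16, from 66.6 ± 7.18 to 37.8 ± 6.01 CPM (adjusted p = 0.00274). Of 7 genes of its complex, Rest included, 3 rose and 4 fell in primary cells, with a median of -0.26, and 1 rose and 4 fell in CG4, with a median of -0.63. Kdm1a, a histone demethylase of the complex, fell in both (-0.68 ± 0.04 and -0.81 ± 0.10), and Rcor3 rose in primary cells by 0.66 ± 0.08 and fell in CG4 by 1.84 ± 0.15. None of 8 passed with Zfp488 by edgeR without the block, 0 had an unadjusted p under 0.05, 0 passed by DESeq2, and 1 fell with the block. With Nkx2.2, 1 of the 8 fell.

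Of 20 CREB and activity-response genes tested in primary cells 4 rose and 15 fell, with a median of -1.12 beside -0.02 over all genes. Egr3, an immediate early gene, fell by 4.93 ± 0.11, from 32.3 ± 1.58 to 1.01 ± 0.211 CPM, Arc by 3.35 ± 0.11 and Fosl1 by 2.23 ± 0.07, while Nptx2 rose by 1.61 ± 0.05 (adjusted p up to 2.57e-10). In CG4 differentiation 6 of 20 rose and 7 fell, with a median of -0.12. There Creb1 fell by 2.34 ± 0.22, from 72.4 ± 7.52 CPM, and Crtc3, a coactivator of CREB, by 2.33 ± 0.17 (adjusted p up to 4.19e-05). With Zfp488, 4 of 24 rose and none fell, or 10 rose and 1 fell with the block. Dusp1, a phosphatase of the immediate early response, rose by 2.16 ± 0.39 from 26.6 ± 11.9 to 118 ± 53.3 CPM, Nr4a3 by 1.61 ± 0.34 and Bdnf, the gene of a neurotrophin, by 1.09 ± 0.25 (adjusted p from 0.00749 to 0.0204). The call of Nr4a3 ended without Zfp488 replicate 4 (0.0518), and that of Bdnf without Zfp488 replicate 2 (0.0688) or 4 (0.0525). None of the 24 passed with Nkx2.2 by edgeR without the block, although 6 had an unadjusted p under 0.05 and 1 passed by DESeq2, and 2 rose and 4 fell with the block.

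**Figure D4:**
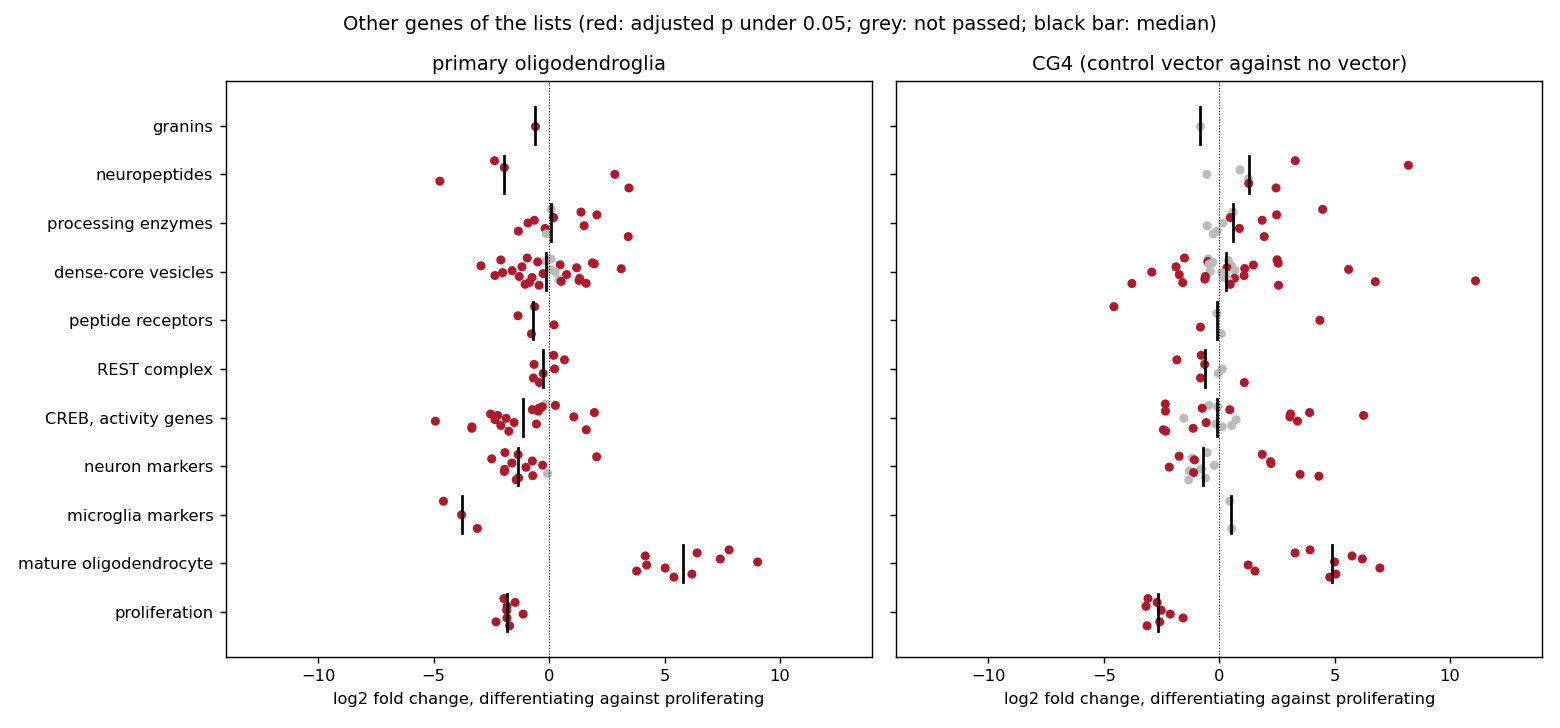
Log2 fold changes on differentiation of the other genes of the fixed lists except the astrocyte, fibroblast, Schwann cell and progenitor markers, which are not drawn, in primary cells (left) and CG4 (right), one point per gene, red where the adjusted p was under 0.05, with the median of each list as a black bar. In primary cells CREB and activity genes have a median of -1.12 and neuron markers one of -1.34. The point drawn farthest right in CG4 is Slc18a2, which had a count of 0 in all 3 proliferating libraries, so its fitted value is no measured fold.

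The patterns over all 23 libraries are given as a description. The 8 primary libraries whose values chose the genes enter each correlation, so high values among genes picked for a fall there, and low ones for Scg3, follow in part from that choice, and nothing is read from them. Pearson's r of log2 CPM was 0.84 between Scg2 and Chgb, 0.82 between Scg2 and Calca, 0.77 between Vgf and Calca and 0.68 between Vgf and Scg2. It was lower between Chgb and Calca (0.58) and between Vgf and Chgb (0.39), and from 0.02 to 0.09 between Scg3 and the other 4. Among the 11442 named genes whose mean level reached 1 CPM, the 3 most like Vgf were Sfxn3 (0.97), Aldh1a3 (0.95) and Arpc2 (0.95). Aldh1a3, an enzyme of retinoic acid synthesis, had group means of 53.5 CPM in proliferating and 0.375 CPM in differentiating primary cells. In CG4 its means were 1.52 CPM in proliferating and 18.6 CPM in control cells. It was picked for its likeness to Vgf, so a shared pattern over the groups follows from that choice.

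Scg2 was most like Dok2, Btg1 and Epha2 (r from 0.95 to 0.96), and Calca like Map4, Msn and Adss (0.96). Chgb was most like Icoslg, Fhl2 and Snap25 (0.94 to 0.95), of which Snap25 belongs to the release machinery described above. Scg3 had weaker neighbours, Tdrd7, Baalc and Pdcl (0.81 to 0.84). Baalc had group means of 14.6 CPM with Zfp488, 6.32 CPM in control and 1.42 CPM with Nkx2.2. Scg3 has the same order in differentiating CG4 cells, which follows in part from the choice of Baalc by likeness.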

How the data were processed

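RNA was measured by RNA-seq. The files the authors deposited hold raw counts of reads per gene for each library, made with Trimmomatic 0.36, STAR 2.5.2b and featureCounts of Subread 1.5.2 on rn6, per the submitters' processing notes. Strand use, annotation release and multi-mapped reads: not given in the sources used here. Per the file headers, the authors' deposited tables hold log2 fold changes, p-values (raw and adjusted) and a normalized signal, which by the values is each count divided by 1 size factor (ratio tolerance 1e-06). They supplied the 14690 gene names.

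The members and lists were chosen with earlier results of these data known. The test on counts was the quasi-likelihood one of edgeR 4.0.16 under R 4.3.3 (TMM, filterByExpr, two-sided, Benjamini-Hochberg over all genes, threshold 0.05). The 12 differentiating CG4 libraries shared 1 fit, and the primary libraries and the control and proliferating CG4 libraries had a fit each. CPM use the 15219 genes in all files and TMM over 23 libraries; genes listed only in the differentiating CG4 files (8.24% to 10.5% of their counts) have CPM in that fit alone. The p-values measure the spread between libraries, which may be technical in part. Same-numbered libraries deviated together in differentiating CG4 cells (r from 0.145 to 0.672 over all pairs), so a fit with the replicate number as a block is printed where it changes a call. The chi-square per degree of freedom between replicates, near 1 where libraries differ by counting noise alone and lower for identical counts, was at least 1.77. It was 1.77 and 8.45 within the pairs of differentiating primary libraries and 29.3 to 37.1 across them. Between proliferating primary libraries it was 2.15 to 4.48, and within the CG4 groups 22.8 to 265.

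Named genes are the members, a part of the up to 4 genes per list and comparison with the smallest adjusted p, direct partners of the members at 10 CPM or more in a group, and the 3 most like genes by Pearson's r of log2 CPM (prior count 2). Promoter windows came from RefSeq on GRCr8; no other coordinates were used. Alternatives were RLE size factors, no filter, DESeq2 1.42.0, equal depth, other sets of libraries or genes, and leaving out each library; leaving out all libraries numbered 3 and splitting the differentiating primary pairs were chosen after seeing the data. The procedure was tested on simulated data.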

Additional observations from a re-analysis of the deposited data

Results flagged for a closer look

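Vgf is listed because its change on differentiation had opposite directions in the 2 cell sources. All 4 control CG4 libraries (20.1 to 122 CPM) lay above all 3 proliferating CG4 libraries (6.41 to 10.6 CPM), a log2 fold change of 3.17, while all 4 differentiating primary libraries (1.64 to 3.84 CPM) lay below all 4 proliferating ones (657 to 734 CPM), a log2 fold change of -7.90. The difference between the cell sources was not tested, since the primary comparison chose the gene, and in CG4 the vector, read length and run cannot be told apart from differentiation. In the 25 groups of 4 libraries checked, 5 genes in 5 groups, 0 libraries stood far enough from the rest to be listed.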

How the results depend on the processing

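The signs, and for tested values the calls, of the 5 genes held under the alternatives run, with the exceptions given here and beside the results. Each alternative changed 1 choice, except that the block in CG4 differentiation also left out control replicate 4, which has no partner, and the cause of a change was not tested unless the alternative itself removed samples. The count of genes passing for Zfp488 against control was 1339 and became 2136 with DESeq2; leaving out 1 library at a time gave 458 (without Zfp488 replicate 4) to 1509. For Nkx2.2 against control it was 1567, and 924 (without Nkx2.2 replicate 4) to 2302 (without Nkx2.2 replicate 3) without single libraries.

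In the replicate block, same-numbered libraries of the differentiating CG4 groups were treated as pairs. This pairing is an assumption, because no shared culture or batch is named for them. Their deviations correlated with r from 0.145 to 0.672, and for number 4 only from 0.145 to 0.208. The fit with the replicate block raised the counts to 3576 for Zfp488 against control, 3876 for Nkx2.2 against control and 6276 (from 3741) for Zfp488 against Nkx2.2. Of the 5 genes it passed 3, 5 and 4 in these comparisons, in place of 2, 2 and 1. In primary cells (r from -0.0274 to 0.0575) and in CG4 differentiation (-0.125 to 0.0437) same-numbered libraries did not deviate together; there the block gave 10413 genes in place of 10439 in primary cells, and the block together with leaving out control replicate 4 gave 6556 of 12355 in place of 8213 of 12486 in CG4.

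The number of the 5 genes that passed also moved for Nkx2.2 against control (1 with only the 8 libraries compared, 4 without all libraries numbered 3, an alternative chosen after seeing the data) and for Zfp488 against Nkx2.2 (3 with DESeq2, 3 with only the 8 libraries, 3 without those numbered 3). Without single libraries it lay between 1 and 2 in all 3 comparisons among differentiating CG4 groups.

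Reversed signs concern values that did not pass. Scg2 for Zfp488 against control was 0.13 with counts thinned to the smallest library and ran from -0.46 to 0.24 without single libraries. Chgb between the factors was 0.20 without libraries numbered 3 and ran from -0.35 to 0.25. In CG4 differentiation the ranges were -1.10 to 0.15 for Scg2, -0.24 to 0.49 for Scg3 and -1.92 to 0.22 for Chgb.

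With unscaled totals the mean level in proliferating primary cells was 793 CPM for Vgf, 515 for Scg2, 54.3 for Scg3, 38.3 for Chgb and 59.3 for Calca, and in differentiating ones 2.21 for Scg2 and 43.7 for Scg3. With RLE size factors Scg3 was 53.9 CPM there. Depth limits Calca in differentiating primary cells (6 to 16 reads per library) and Scg2 in 1 control (8 reads) and 1 proliferating CG4 library (5 reads).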
